A study of Mus musculus with 6 samples.

Results

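The genes described here are 10 markers of the cardiac fibroblast, Pdgfra, Dcn, Lum, Postn, Tcf21, Fn1, Sparc, Gsn, Mgp and Thbs1, taken by gene symbol from a table of 54532 genes as a measure of how much fibroblast RNA each heart library held. RNA was sequenced from the hearts of mice of 12 weeks that were homozygous for a germline knockout of Mc4r, the melanocortin-4 receptor (Mc4r KO, n = 3), and from wild-type mice (WT, n = 3). All were male, of the C57B/6/N background and littermates born to heterozygous parents, with no further allele or treatment, and each library came from 1 mouse. The study asked how the loss of the receptor affects the heart at an early age. The labels give the tissue as heart and, in the titles, as muscle, and the paper names the left ventricle. Since Mc4r was lost in the whole animal, an effect within fibroblasts and an effect from elsewhere in the body cannot be told apart. Mc4r itself had 2 reads in WT 3 and none in the other libraries, so the genotype could not be checked from its RNA.

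The fibroblast is the main matrix-producing cell of the heart. Resident fibroblasts arise largely from the epicardium, carry the PDGF receptor alpha, express the transcription factor Tcf21 and secrete proteoglycans and glycoproteins around the cardiomyocytes. After injury some of them become activated, make contractile proteins and secrete periostin and more collagen. Several of the 10 genes are also made by other cells: smooth muscle makes much Mgp, endothelial cells make Sparc and Fn1, and gelsolin is present in many cells.

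Each library held 14691076 to 16047003 reads on genes. Levels are given as FPKM, which is reads scaled to the length of the gene and by a factor for the library, so levels of different genes can be set side by side. The median ratio of a library's values to the geometric mean over libraries was 1.006 in each of the 6 libraries. The deposited values were thus already aligned at a common median, and not scaled by the number of reads alone. WT 3 stood apart. The atrial genes Myl7, Myl4, Sln, Nppa and Bmp10, a list added after the data were seen, summed to 798 FPKM in WT 3, to 28.7 and 95.2 in WT 1 and 2, and to 137, 6.29 and 43.7 in Mc4r KO 1, 2 and 3. Myl7, the atrial myosin light chain, was at 307 FPKM in WT 3 and at 0.24 in WT 1. Across genes, WT 3 had its highest correlation with Mc4r KO 1 (r = 0.962) and lower ones with WT 1 (0.946) and WT 2 (0.952). Transcripts of the mitochondrial chromosome made up 47.1% to 59.3% of FPKM in WT and 43.0% to 46.6% in Mc4r KO. Results are therefore given with and without WT 3 and, where it matters, after scaling to the genes outside the mitochondrial chromosome.

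Promoter windows of 250 bases before the transcription start were matched in RefSeq (GRCm38.p6) for 5 of the 10 genes, Pdgfra, Tcf21, Postn, Gsn and Sparc. The windows of the first 4 are shown because their starts lie within 41 bases of the gene starts used for the expression values, and because these genes cover the receptor, the transcription factor, the activation marker and the most abundant of the 10. Capitals mark matches, on either strand, to 4 words. TATAAA is the box of many core promoters, GGGCGG is the word bound by Sp1, CAGCTG is an E-box of the kind that basic helix-loop-helix factors bind, and TGANTCA is the word bound by Fos and Jun. These motifs do not overlap each other in the windows shown. The Pdgfra window is chr5:75152001-75152250 (plus strand), that of Tcf21 is chr10:22820144-22820393 (minus strand), that of Postn is chr3:54360857-54361106 (plus strand) and that of Gsn is chr2:35256109-35256358 (plus strand).
Pdgfra: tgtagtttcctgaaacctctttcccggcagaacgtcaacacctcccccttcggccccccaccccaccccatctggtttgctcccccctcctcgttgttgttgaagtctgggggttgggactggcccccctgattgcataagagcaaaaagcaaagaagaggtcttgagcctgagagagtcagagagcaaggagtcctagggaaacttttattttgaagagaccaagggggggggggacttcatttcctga
Tcf21: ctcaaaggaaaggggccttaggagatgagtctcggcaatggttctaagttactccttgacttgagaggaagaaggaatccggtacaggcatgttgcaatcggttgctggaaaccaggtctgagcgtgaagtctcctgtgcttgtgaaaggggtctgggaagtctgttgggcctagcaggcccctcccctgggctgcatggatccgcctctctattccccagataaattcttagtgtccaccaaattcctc
Postn: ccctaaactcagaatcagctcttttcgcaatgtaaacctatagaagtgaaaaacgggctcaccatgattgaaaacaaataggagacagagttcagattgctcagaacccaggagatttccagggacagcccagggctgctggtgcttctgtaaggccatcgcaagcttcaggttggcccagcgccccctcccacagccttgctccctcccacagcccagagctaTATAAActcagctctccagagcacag
Gsn: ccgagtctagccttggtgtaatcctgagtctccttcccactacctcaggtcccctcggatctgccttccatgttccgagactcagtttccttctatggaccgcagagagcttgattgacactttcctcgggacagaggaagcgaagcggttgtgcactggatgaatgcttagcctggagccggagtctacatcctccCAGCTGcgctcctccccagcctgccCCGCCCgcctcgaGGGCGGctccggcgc
Of all 32817 windows of this length, 12.4% held a TATAAA, 32.7% a GGGCGG, 13.0% a CAGCTG and 6.75% a TGANTCA. The Postn window held TATAAA 26 bases before the start. The Gsn window held no TATAAA but GGGCGG at 28 and 15 bases and CAGCTG at 53 bases before the start. The windows of Pdgfra and Tcf21 held none of the 4 motifs. The 4 windows shown thus share no motif among those searched. In all, 8 windows were matched for the 5 genes. Gsn and Postn had further windows, not shown, that lay farther from the gene start. The further Gsn windows held GGGCGG as well, at 60 and at 12 bases before their starts. The Sparc window, also not shown, held CAGCTG at 60 bases before its start, a motif that the Gsn window holds too.

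The 10 genes differed widely in level. Gsn, at 356 to 591 FPKM over the 6 libraries, lay above all others without overlap, and it made up 50.4% to 60.5% of the summed FPKM of the 10 genes. Mgp (61.7 to 170), Sparc (83.9 to 117) and Dcn (77.1 to 125) formed a second tier whose ranges overlapped. Lum lay alone at 18.0 to 32.6 FPKM. Fn1, Pdgfra, Postn, Thbs1 and Tcf21 lay between 1.90 and 7.02 FPKM with overlapping ranges. The plot of levels by library shows this order and which groups separate.

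**Figure D1:**
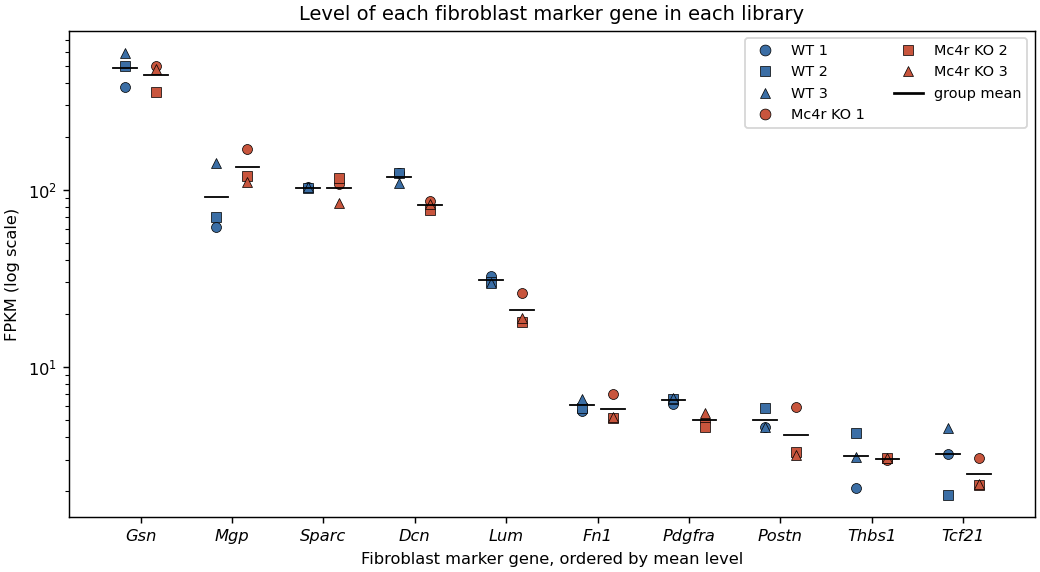
FPKM on a log axis for each of the 10 fibroblast marker genes (horizontal axis, ordered by mean level). Each point is 1 library, blue for WT and red for Mc4r KO, with circle, square and triangle for replicates 1, 2 and 3 and a black line at the group mean. The red points lie below all blue points for Dcn, Lum and Pdgfra. For Mgp, WT 3 lies among the red points and the other WT libraries below them.

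Between the groups, 3 genes of resident fibroblasts, Dcn, Lum and Pdgfra, were lower in every Mc4r KO library than in every WT library. The mean levels differed from WT by -31.0%, -31.8% and -22.9%. Mgp pointed the other way, and the remaining 6 genes overlapped between the groups. None of the 10 passed the test, limma on log2(FPKM + 0.1) with Benjamini-Hochberg adjustment over all 18035 genes tested, in which a gene was called at an adjusted p under 0.05 if its log2 fold change also exceeded 0.75 in either direction. Over all genes, 0.46% were called in either direction and 0.144% were called lower in Mc4r KO. An unadjusted p under 0.05 was reached by 3 of the 10 genes, against 20.9% of all genes. Separation with all Mc4r KO libraries lower was found for 3 of the 10 and for 12.4% of all genes, and separation with all Mc4r KO libraries higher for 0 of the 10 and for 14.1% of all genes. With 10 genes chosen as markers, these shares are counts only. The exact permutation test of 3 libraries against 3 cannot go below a two-sided p of 0.1, and Dcn, Lum and Pdgfra reached that smallest value. In whole heart tissue, fewer fibroblasts and less RNA per fibroblast cannot be told apart.

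Dcn encodes decorin, a small leucine-rich proteoglycan that binds collagen fibrils and TGF-beta, and Lum encodes lumican, which also regulates collagen fibrils. The genes lie next to each other on chromosome 10, Dcn at 97479609 to 97518143 and Lum at 97565128 to 97572703 (mm10, plus strand). Dcn was at 125, 124 and 109 FPKM in WT 1, 2 and 3 and at 87.0, 77.1 and 83.0 in Mc4r KO 1, 2 and 3. The highest Mc4r KO library was thus below the lowest WT library, and both groups were tight (119 ± 8.94 against 82.4 ± 5.03, mean ± SD, n = 3 each). The log2 fold change was -0.53 with a standard error of 0.09 and a 95% interval of -0.75 to -0.31 (limma, adjusted p = 0.0579), which missed both thresholds. Without WT 3 it was -0.60 with a limma adjusted p of 0.0129, still short of the fold threshold. In 17 alternative analyses Dcn was lower each time, with log2 fold changes from -0.73 to -0.49 and an adjusted p from limma of 0.0129 to 0.218, under 0.05 in 5 of them.

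Lum was at 32.6, 30.1 and 29.8 FPKM in WT 1, 2 and 3 and at 26.1, 18.0 and 18.9 in Mc4r KO 1, 2 and 3. Mc4r KO 1 stood nearer to WT than the other Mc4r KO libraries did, without overlap. The log2 fold change was -0.57 with a standard error of 0.15 (limma, adjusted p = 0.107), and -0.59 without WT 3 (limma, adjusted p = 0.0791). With limma voom on the reads recovered from FPKM, the adjusted p was 0.0415 and the call was still missed on fold. The 2 neighbours varied together over the 6 libraries (r = 0.92, and 0.65 after removing the group means), as a description of 6 libraries that share 2 groups. Lum amounted to 0.228 to 0.300 of Dcn in each library, a ratio that overlapped between the groups.

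The other small leucine-rich proteoglycans did not all follow. Of 9 listed, 7 had enough RNA to be tested, 5 with a negative and 2 with a positive log2 fold change, with a median of -0.57 against -0.01 for all genes. None was called. Ogn, osteoglycin, was at 74.0, 65.8 and 50.7 FPKM in WT and at 37.7, 35.5 and 33.7 in Mc4r KO, again without overlap (log2 fold change -0.82, standard error 0.14, limma adjusted p = 0.0579). Without WT 3, Ogn was called lower (-0.97, limma adjusted p = 0.00584), as was Aspn, asporin (-0.84, limma adjusted p = 0.0354), where 1.24% of all genes were called lower. With voom on recovered reads Ogn was called too (limma adjusted p = 0.0114), where 0.688% of genes were called lower. Bgn, biglycan, the closest relative of decorin, was level instead, at 33.7, 44.9 and 36.2 FPKM in WT and 45.8, 38.3 and 36.1 in Mc4r KO (log2 fold change 0.07, standard error 0.14). Without WT 3 the median of the 7 was -0.21. Kera had no reads in any library. Aspn was chosen after its values were seen.

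**Figure D2:**
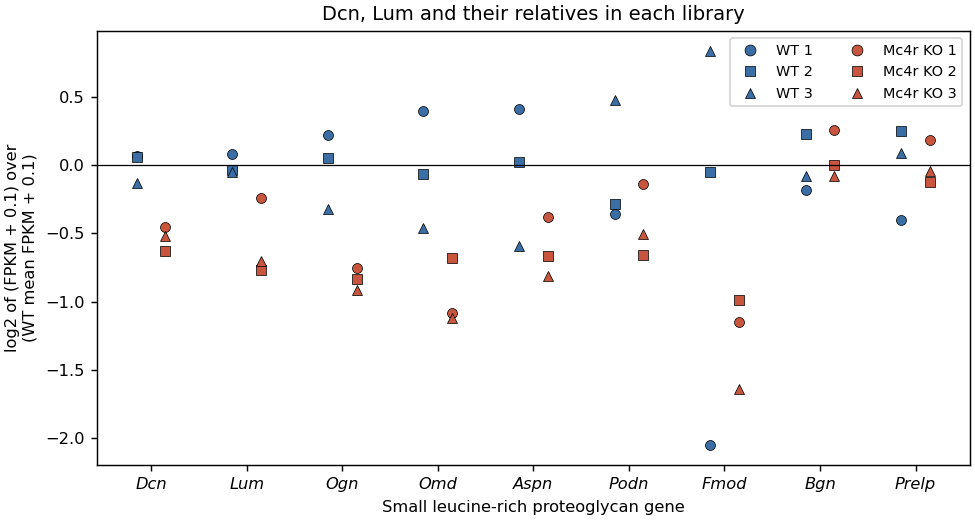
Level of each small leucine-rich proteoglycan gene relative to its WT mean, on the log2 scale after adding 0.1 FPKM to both, 1 point per library (blue WT, red Mc4r KO, marker shape by replicate). Red points lie below all blue points for Dcn, Lum, Ogn and Omd, and among them for Bgn and Prelp. WT 3 is the lowest WT library for Dcn, Lum, Ogn, Omd and Aspn.

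Pdgfra, the tyrosine kinase receptor that marks cardiac fibroblasts, was at 6.16, 6.61 and 6.65 FPKM in WT and at 4.92, 4.58 and 5.47 in Mc4r KO. All 3 Mc4r KO libraries lay below WT, and the groups spread little (6.47 ± 0.271 against 4.99 ± 0.449, SD, n = 3 each). The log2 fold change was -0.37 with a standard error of 0.10 and an interval of -0.61 to -0.13 (limma, adjusted p = 0.12), and -0.35 without WT 3 (limma, adjusted p = 0.0979). It was negative in all 17 alternatives and passed the adjusted threshold in none. Exons of genes on the opposite strand cover 6.21% of its exonic bases, and whether strand was used in counting is not given in the sources used here. None of the 4 PDGF ligands or Pdgfrb, the receptor of pericytes, was called. Pdgfrb was at 15.2 to 20.2 FPKM in WT and 14.8 to 17.6 in Mc4r KO (log2 fold change -0.10, standard error 0.13), and Pdgfb, an endothelial ligand, was at 12.9 to 16.5 and 14.5 to 20.8 (0.23, standard error 0.15).

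Tcf21, a basic helix-loop-helix factor required for the fibroblast lineage, was the least abundant of the 10. It was at 3.23, 1.90 and 4.50 FPKM in WT and at 3.07, 2.16 and 2.18 in Mc4r KO. All Mc4r KO values lay within the WT range. The log2 fold change of -0.30 had an interval of -1.02 to 0.41 (limma, adjusted p = 0.603) and came to -0.02 without WT 3, whose level was the highest. The 3 E-proteins with which such factors pair all had negative log2 fold changes and none was called: Tcf3 was at 6.73 to 7.15 FPKM in WT and 5.65 to 6.40 in Mc4r KO (-0.24, standard error 0.09), and Tcf4 overlapped between the groups (-0.27, standard error 0.15).

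Postn, a marker of activated fibroblasts, and Fn1 and Thbs1, of the provisional matrix, overlapped between the groups. Postn, periostin, was at 4.59, 5.89 and 4.60 FPKM in WT and at 5.94, 3.31 and 3.17 in Mc4r KO. Mc4r KO 1 held the highest level of all 6 libraries and the other Mc4r KO libraries the lowest. The log2 fold change was -0.32 with an interval of -0.90 to 0.26 (limma, adjusted p = 0.504). Fn1, fibronectin, had the same split, at 5.67, 5.89 and 6.62 FPKM in WT and 7.02, 5.18 and 5.21 in Mc4r KO, with a log2 fold change of -0.07 and an interval of -0.41 to 0.26. Postn and Fn1 varied together over the libraries (r = 0.79, and also 0.79 without the group means). Thbs1, thrombospondin-1, an activator of latent TGF-beta, was at 2.07, 4.23 and 3.10 FPKM in WT and at 2.99, 3.07 and 3.07 in Mc4r KO. Its Mc4r KO values were nearly identical and lay inside the wide WT range, and the log2 fold change of 0.02 had an interval of -0.54 to 0.57. The sign for Fn1 turned with some alternatives, as did that for Thbs1.

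Of the receptors of these glycoproteins, the most abundant had log2 fold changes near 0. Itgb1, the shared integrin beta chain and the most abundant fibronectin receptor listed, was at 108 to 114 FPKM in WT and 111 to 116 in Mc4r KO (log2 fold change 0.05, standard error 0.07). Itga5, its partner for fibronectin, had a log2 fold change of 0.15 (standard error 0.11). Cd36, a thrombospondin receptor that also takes up fatty acids, was at 413 to 525 and 483 to 579 FPKM (0.15, standard error 0.13), and Cd47 had a value of 0.02 (standard error 0.10). Itgav, the integrin alpha chain in both lists and chosen after its values were seen, was lower in every Mc4r KO library, at 3.26, 2.83 and 3.09 FPKM in WT and 2.36, 2.30 and 2.47 in Mc4r KO (-0.35, standard error 0.11, limma adjusted p = 0.147). None of the 5 fibronectin receptor genes and none of the 7 thrombospondin genes and receptors was called.

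Sparc, the collagen-binding matricellular protein also called osteonectin, was at 104, 102 and 104 FPKM in WT and at 108, 117 and 83.9 in Mc4r KO. WT varied by 1.12% of its mean and Mc4r KO by 16.6%, with values on both sides of WT. The means were equal at 103, and the log2 fold change of -0.02 had an interval of -0.32 to 0.28. Of 6 relatives of Sparc and Postn 5 had a negative log2 fold change and none was called. Sparcl1 overlapped between the groups at 112 to 133 and 102 to 126 FPKM (-0.11, standard error 0.11), as did Fstl1 (-0.08, standard error 0.14). Tgfbi (-0.44, standard error 0.17) and Smoc1 (-1.37, standard error 0.63), named after their values were seen, were lower in every Mc4r KO library than in WT. Set against Sparc, Dcn gave ratios of 1.21, 1.21 and 1.05 in WT and 0.806, 0.659 and 0.989 in Mc4r KO. This ratio, chosen after the values were seen, lay lower in each Mc4r KO library, and since both genes come from the same library it does not depend on the scaling of the FPKM.

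Gsn, gelsolin, severs and caps actin filaments and also has a secreted form. It was at 379, 498 and 591 FPKM in WT and at 501, 356 and 483 in Mc4r KO. The groups overlapped widely, and the log2 fold change of -0.12 had an interval of -0.60 to 0.35 (limma, adjusted p = 0.766), with the sign turned without WT 3 (0.02). Of the 6 other gelsolin family genes 5 were tested and none called. Svil, supervillin, was at 25.9 to 33.4 FPKM in WT and 24.2 to 27.5 in Mc4r KO (-0.21, standard error 0.11), and Flii had a value of 0.08 (standard error 0.08). Scin, scinderin, the relative nearest in function to gelsolin and chosen after its values were seen, was at 2.01, 1.56 and 1.29 FPKM in WT and 0.408, 0.219 and 0.603 in Mc4r KO. It missed the call with all libraries (log2 fold change -1.80, standard error 0.32, limma adjusted p = 0.0589) and passed it without WT 3 (-1.95, limma adjusted p = 0.0291).

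Mgp encodes matrix Gla protein, a secreted inhibitor of calcification that binds BMPs and needs carboxylation by a vitamin K-dependent enzyme. It was at 61.7, 69.9 and 142 FPKM in WT and at 170, 120 and 111 in Mc4r KO. All 3 Mc4r KO libraries lay above WT 1 and 2, and WT 3 lay among them. With all libraries the log2 fold change was 0.63 with a standard error of 0.32 and an interval of -0.12 to 1.38 (limma, adjusted p = 0.313). Without WT 3 it was 0.998 with a standard error of 0.19 and an interval of 0.54 to 1.46 (limma, adjusted p = 0.0299), and Mgp was the single gene of the 10 to be called, among 2.81% of all genes called higher. With the level of the atrial markers as a covariate, an analysis added after the data were seen, the value was 0.98 (limma, adjusted p = 0.0589). Other alternatives gave smaller values. Over all 17 the range was 0.40 to 0.998, with an adjusted p from limma of 0.0299 to 0.61. After scaling outside the mitochondrial chromosome the value for Mgp was 0.43 (limma, adjusted p = 0.391). WT 3 and Mc4r KO 1 held the most Mgp of their groups and also the highest summed atrial markers of their groups. Among the 3 libraries with Myl7 at 0.24 to 0.558 FPKM, which are WT 1 and Mc4r KO 2 and 3, Mgp was at 61.7, 120 and 111 FPKM. Only 1 of these is a WT library, so no conclusion is drawn, and the part of atrial RNA in the Mgp level was not tested.

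The vitamin K cycle genes and the BMP ligands listed for Mgp had positive log2 fold changes in 5 of 5 cases. None was called, and the median was 0.42. Ggcx, the carboxylase that activates Mgp and chosen after its values were seen, was at 4.48, 5.26 and 5.45 FPKM in WT and at 6.34, 6.66 and 6.30 in Mc4r KO (0.34, standard error 0.11, limma adjusted p = 0.14). Bmp2, a ligand that Mgp binds and chosen in the same way, was at 0.176 to 0.380 and 0.421 to 0.652 FPKM (0.79, standard error 0.31, limma adjusted p = 0.211). Bmp2 had 9 to 36 reads per library. Ggcx and Bmp2 separated the groups, as did 14.1% of all genes with all Mc4r KO libraries higher. A median of 0.40 was left without WT 3, and 0.23 after scaling outside the mitochondrial chromosome. Nqo1, the most abundant of the 5, overlapped (0.06, standard error 0.27).

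**Figure D3:**
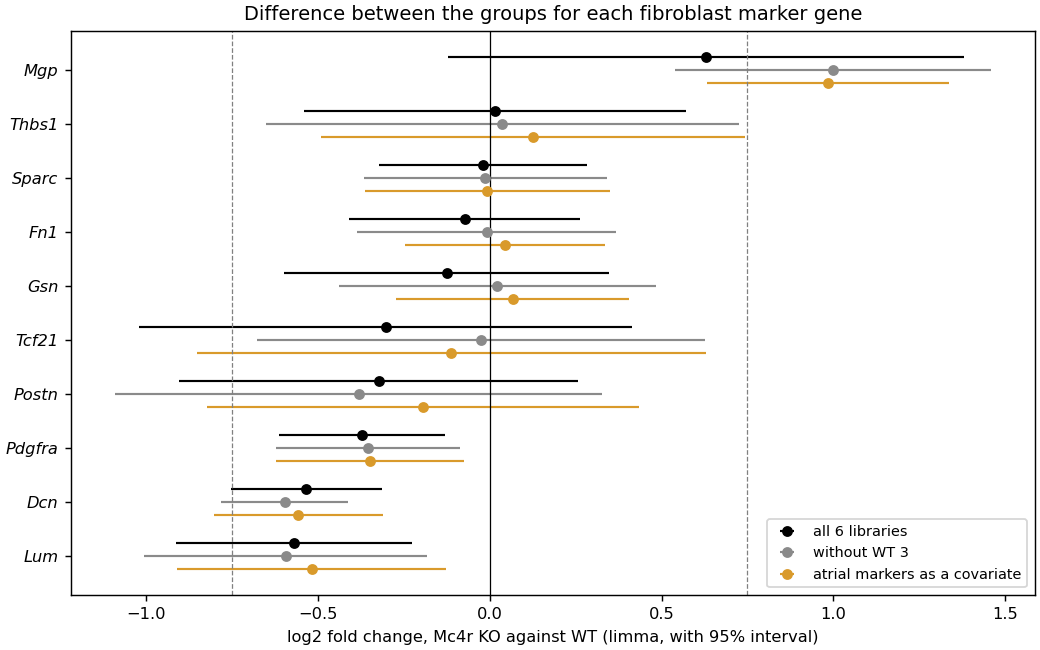
Log2 fold change of each fibroblast marker gene, Mc4r KO against WT, with its 95% interval from limma, for all 6 libraries (black), without WT 3 (grey) and with the atrial markers as a covariate (orange). Dashed lines mark the fold threshold of 0.75 in both directions. The intervals of Dcn, Lum and Pdgfra lie below 0 in all 3 analyses, and that of Mgp lies above 0 in the latter 2.

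The 10 genes did not move as 1 unit. Their summed FPKM was 725, 849 and 1000 in WT and 916, 707 and 799 in Mc4r KO, and without Gsn it was 345, 350 and 410 against 415, 351 and 316. Both sums overlapped between the groups. Of the 45 pairs of genes, 11 had a correlation above 0.5 over the 6 libraries and 11 a negative one, with a median of 0.26. Dcn and Mgp were the most opposed pair (r = -0.69). The Mgp to Dcn ratio was 0.493, 0.565 and 1.30 in WT and 1.95, 1.56 and 1.33 in Mc4r KO, with WT 3 just below the lowest Mc4r KO library. Pdgfra and Dcn correlated at 0.89 over all libraries but at 0.08 after removing the group means. Their shared pattern was thus mostly the step between the groups. All these values describe 6 libraries and carry no test.

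The median log2 fold change of the 10 genes was -0.21 with all libraries, against -0.01 over all genes tested, and -0.02 without WT 3. Scaling to genes outside the mitochondrial chromosome sets aside the common median of the deposited values. It moved the median of all genes to -0.19 and that of the 10 genes to -0.41. Over all genes the same scaling turned 57 higher and 26 lower calls into 16 higher and 25 lower ones. Under it Dcn, Lum and Pdgfra had log2 fold changes of -0.73, -0.76 and -0.56 and were still not called, with Dcn nearest to the threshold (limma, adjusted p = 0.0665).

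**Figure D4:**
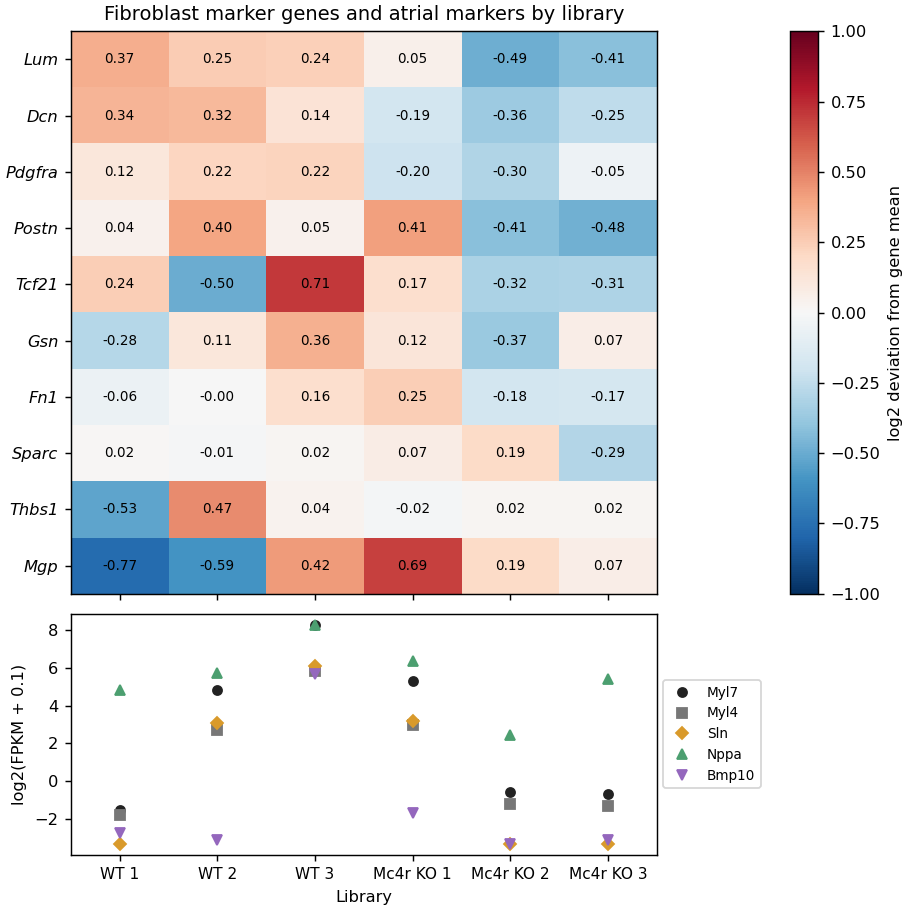
Top, log2 deviation of each fibroblast marker gene from its mean over the 6 libraries (red above, blue below), with 1 column per library. Bottom, log2(FPKM + 0.1) of 5 atrial markers in the same libraries. Dcn, Lum and Pdgfra switch colour between WT and Mc4r KO, apart from values near 0 for Lum in Mc4r KO 1 and Pdgfra in Mc4r KO 3, while Tcf21, Gsn and Mgp are high in WT 3, where all 5 atrial markers are highest.

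The protein-coding genes most like the mean standardised profile of the 10, among 10210 candidates with a mean of at least 1 FPKM, were Cyp4v3 (r = 0.987), Armcx2 (0.987), Tbc1d8 (0.986), Ctdsp2 (0.980) and Mybphl (0.979). Cyp4v3 is a cytochrome P450, and its levels were 1.15, 1.55 and 1.77 FPKM in WT and 1.57, 1.0 and 0.982 in Mc4r KO. Mybphl, a sarcomere gene of the atrium, was at 0.278, 2.95 and 23.4 FPKM in WT and at 4.14, 0.0516 and 0 in Mc4r KO. The mean log2 deviation of the 10 genes was highest in WT 3 (0.24) and next in Mc4r KO 1 (0.14), which are also the 2 libraries with the most atrial RNA. None of these 5 genes separated the groups.

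Other fibroblast genes gave a mixed picture. Of 16 further genes of resident fibroblasts, 8 had a positive and 8 a negative log2 fold change, with a median of 0.02 and no call. Dpt, dermatopontin, a matrix protein that binds decorin, was at 49.6, 49.7 and 72.8 FPKM in WT and 55.5, 45.5 and 46.4 in Mc4r KO (-0.20, standard error 0.17). Of the 16, 2 separated the groups with all Mc4r KO libraries lower and 2 with all higher, against 12.4% and 14.1% of all genes. The lower ones were Ogn, given above, and Ddr2 (-0.39, standard error 0.13). The higher ones were Fbln2 and Htra3 (0.42, standard error 0.12). Ddr2 and Htra3 were named after their values were seen. Fbln2, fibulin-2, an elastic fibre protein chosen after its values were seen, went opposite to Dcn. It was at 15.7, 18.9 and 17.5 FPKM in WT and at 29.5, 26.0 and 30.7 in Mc4r KO, a log2 difference of 0.73 (standard error 0.10, limma adjusted p = 0.0445) that fell just short of the fold threshold. Of 8 fibrillar and type VI collagen genes none was called, 5 had a positive and 3 a negative log2 fold change, and the median was 0.02. Col3a1 was at 18.5 to 33.1 FPKM in WT and 15.2 to 22.6 in Mc4r KO (-0.33, standard error 0.23), and Col6a1 overlapped as well (-0.08, standard error 0.15). Col6a3, chosen after its values were seen, was the 1 collagen gene to separate the groups, at 3.04, 3.66 and 3.79 FPKM in WT and 4.59, 5.40 and 3.81 in Mc4r KO (0.38, standard error 0.16, limma adjusted p = 0.23).

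Of 15 genes of activated fibroblasts, 9 had a positive and 6 a negative log2 fold change, with a median of 0.43 and no call. The median was 0.15 without WT 3 and 0.06 after scaling outside the mitochondrial chromosome. Acta2, smooth muscle actin, spread from 31.9 to 91.2 FPKM within Mc4r KO alone. Ctgf, connective tissue growth factor, was at 25.5, 30.1 and 25.9 FPKM in WT and 25.2, 15.1 and 18.1 in Mc4r KO (-0.51, standard error 0.18, limma adjusted p = 0.186). Lox, which cross-links collagen, was chosen after its values were seen. It was at 1.11, 0.999 and 1.21 FPKM in WT and 2.21, 2.50 and 1.75 in Mc4r KO, a log2 difference of 0.89 (standard error 0.17, limma adjusted p = 0.0688) that was called without WT 3 (0.96, limma adjusted p = 0.0318) and with voom (0.94, limma adjusted p = 0.0299), where 1.07% of all genes were called higher. Of 15 genes of TGF-beta signalling none was called and the median was -0.01. Ski, its nuclear repressor, had a log2 fold change of 0.00.

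The immediate early genes, which respond within minutes to handling of tissue, were negative in 13 of 18 cases, at a median of -0.23 on the log2 scale, and none was called. Klf2 was at 57.6 to 67.8 FPKM in WT and 35.2 to 49.1 in Mc4r KO (-0.50, standard error 0.14, limma adjusted p = 0.124), and Dusp1 overlapped (0.02). With all libraries their median was close to that of the fibroblast markers. Without WT 3 the medians were -0.20 for the immediate early genes and -0.02 for the fibroblast markers. The part of tissue handling in the fibroblast markers was not tested.

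Markers of the other cell types of the heart were compared in the same way, and none of their genes was called with all libraries. The 10 cardiomyocyte markers summed to 14600 to 15800 FPKM in WT and to 17700 to 19300 in Mc4r KO without overlap. These sums are of FPKM as deposited, without rescaling, and Actc1 was the largest term in them. The median log2 fold change of the 10 was 0.14 and turned to -0.06 after scaling outside the mitochondrial chromosome. Actc1, cardiac actin, was at 4570 to 5500 and 7120 to 8310 FPKM (0.54, standard error 0.19), and Myh6 at 2230 to 2710 and 2700 to 3080 (0.25, standard error 0.15). Endothelial markers summed to 218 to 255 and 238 to 273 FPKM with a median of 0.11, which turned to -0.09 under that scaling. Cdh5 had a value of -0.07 and Pecam1 one of 0.18, both overlapping. Tie1 (0.42), Flt1 (0.48), Esam (0.28) and Egfl7 (0.32), named after their values were seen, were higher in every Mc4r KO library than in WT. That is 4 of the 10, against 14.1% of all genes. Of the 10, 7 had a positive and 3 a negative log2 fold change. The 3 negative ones were Cdh5, Emcn (-0.32) and Vwf (-0.30), the last 2 also named after their values were seen. Smooth muscle and pericyte markers summed to 313 to 395 and 282 to 376 FPKM (median 0.02, and -0.15 scaled), with Rgs5 at -0.32 (standard error 0.21). Macrophage markers summed to 185 to 287 and 229 to 292 FPKM (median 0.05, and -0.14 scaled), led by Lyz2 (0.14, standard error 0.15). Named after their values were seen, Cd68 (-0.42), Csf1r (-0.37) and Mrc1 (-0.40) were lower in every Mc4r KO library than in WT. That is 3 of these 10 markers, against 12.4% of all genes. Of the 10, 5 had a positive and 5 a negative log2 fold change. Among the positive ones were C1qa (0.63), Cd163 (0.44) and C1qb (0.31), also named after their values were seen. How far the shares of these cell types moved the fibroblast markers was not tested.

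Epicardial and mesothelial markers, which mark the cell layer from which many fibroblasts derive, summed to 31.5 FPKM in WT 3 and to 5.51 to 8.84 in the other 5 libraries. Upk3b was at 11.6 and Msln at 8.47 FPKM in WT 3. Their median log2 fold change of -0.50 became 0.15 without WT 3. Over all genes, 12.4% were lower in every Mc4r KO library than in WT. Of the 8 markers this held for 1, Wt1, named after its values were seen. It was at 1.18, 0.922 and 1.63 FPKM in WT and at 0.811, 0.744 and 0.483 in Mc4r KO (-0.78, standard error 0.27, limma adjusted p = 0.169). Red cell markers summed to 4500, 859 and 6340 FPKM in WT and to 1650, 663 and 620 in Mc4r KO, led by Hbb-bs (-1.61, standard error 0.75) and Hba-a1 (-1.88, standard error 0.75). Of the 6 adipocyte markers 1, Cfd, had enough RNA to be tested. Each was listed at 0 in at least 1 library and the sum reached 1.02 FPKM at most. The 4 Schwann cell markers tested had a median of -0.26, and Cdh19, at -0.31, overlapped between the groups. Dcn and Lum, in contrast to the epicardial markers, were lower in WT 3 than in the other WT libraries.

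**Figure D5:**
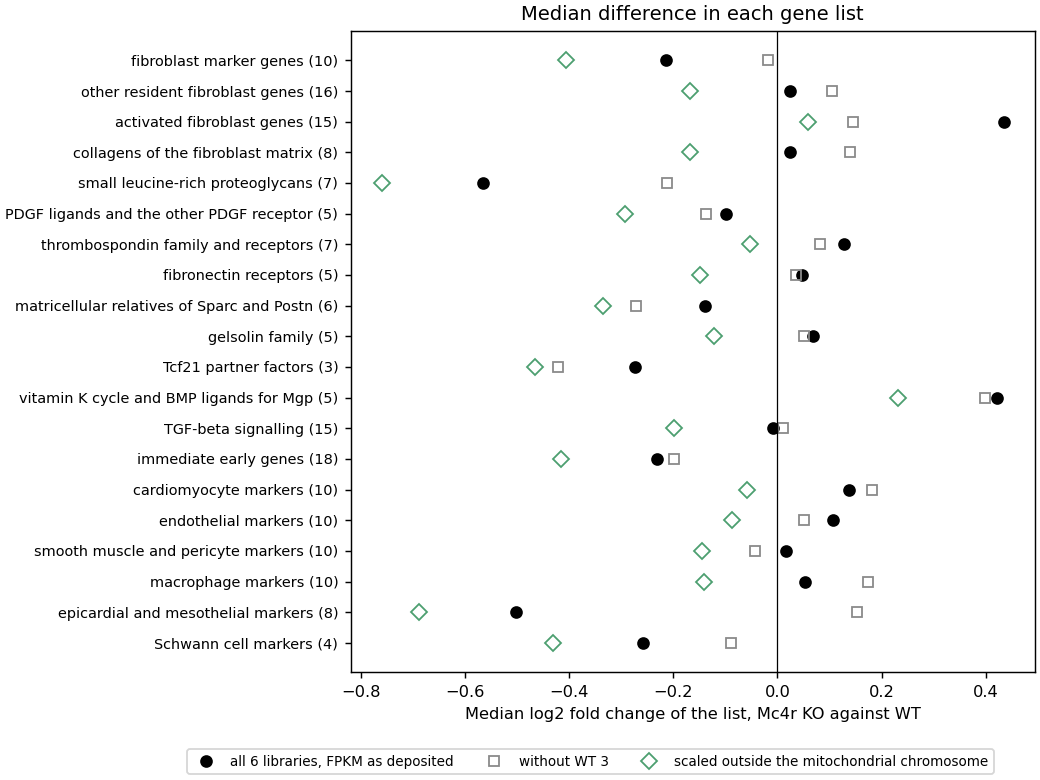
Median log2 fold change, Mc4r KO against WT, of each gene list with the number of its genes tested, for all libraries (filled circles), without WT 3 (open squares) and after scaling outside the mitochondrial chromosome (open diamonds). The lists of red cell, adipocyte and atrial markers are not drawn. The fibroblast marker genes lie at -0.21, -0.02 and -0.41, and the diamonds lie left of the filled circles for each list drawn.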

How the data were processed

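RNA of 6 hearts was enriched for poly(A), made into NEBNext Ultra libraries and sequenced in paired ends. The authors aligned the reads with HISAT2 2.0.5 to mm10, counted them with featureCounts and deposited FPKM for each gene and library. The annotation release and strand setting are not given in the sources used here. GENCODE M21 held 99.8% of the gene identifiers. FPKM multiplied by gene length gave whole reads (within 0.1 read, up to 500 reads) for 100% of values. The depth of 14691076 to 16047003 reads limits precision for the low genes.

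The FPKM were tested with limma 3.58.1 (R 4.3.3) on log2(FPKM + 0.1) with the empirical Bayes trend, two-sided, with Benjamini-Hochberg adjustment over the 18035 genes whose FPKM averaged 0.1 or more. The limma steps were tested on simulated data. Genes were called at an adjusted p under 0.05 if the log2 fold change exceeded 0.75 in either direction. P-values set the difference between the groups against the spread among the 6 mice within their groups, moderated over all genes. Alternatives were other pseudocounts (0.01 and 1), filters, scalings, array weights, protein-coding genes only, voom on recovered reads, a replicate block, and leaving out each library. The atrial marker list and its covariate were added after the data were seen.

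The 10 genes and the other gene lists were chosen with earlier results of these data known. Named are the 10 genes, in each other list the called genes or else the 2 with the highest mean FPKM, and the 5 genes most like the mean profile. A few genes that this rule names are left out here. For any other gene the text says that its choice followed its values. Figures were drawn with matplotlib 3.10.9.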

Additional observations from a re-analysis of the deposited data

How the results depend on the processing

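Of the 10 genes, Dcn, Lum, Pdgfra, Postn and Tcf21 stayed negative and Mgp positive in all 17 alternatives, and the single call among the 10 was Mgp without WT 3. The calls among the 10 genes ranged from 0 to 1 when single libraries were left out, and their median log2 fold change from -0.29 to -0.019, with -0.41 after scaling outside the mitochondrial chromosome. Signs turned for genes near 0. Fn1 came to 0.0435 and Gsn to 0.0666 with the atrial marker covariate, and leaving out single libraries gave -0.22 to 0.0005 for Fn1, -0.30 to 0.0313 for Gsn, -0.12 to 0.12 for Sparc and -0.25 to 0.25 for Thbs1, which also turned with array weights (-0.0898) and with scaling outside the mitochondrial chromosome (-0.17). The cause was not tested.

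Over all genes, 83 were called, against 435 with array weights, 317 with voom on recovered reads, 204 for protein-coding genes only, 147 at a mean FPKM of at least 1, 49 after quantile normalization, 44 with a pseudocount of 1, 41 after scaling outside the mitochondrial chromosome, 40 with the atrial marker covariate and 22 with no filter. Leaving out single libraries gave 7 to 726 calls, with 726 without WT 3 and at most 14 without any other library. In the other lists no gene was called with all libraries, against 5 with array weights (Ogn, Lox, Scin, Atf3 and Timp1), 3 with voom and 3 for protein-coding genes only (Ogn, Lox and Scin each time), 1 at a mean FPKM of at least 1 (Ogn), and 0 to 8 when single libraries were left out. The 8 were called without WT 3: Ogn, Aspn, Atf3 and Scin lower, and Lox, Timp1, C1qa and Junb higher.

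With the replicate block, 11 genes and none of the 10 were called. Neither the labels nor the paper say whether the replicate numbers pair the mice. Deviations of same-numbered libraries from their group means correlated at -0.14, 0.01 and -0.08 over 11297 genes. With 3 libraries in each group, these values cannot settle whether same-numbered mice were paired.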
